A study of Homo sapiens with 8 samples.

Results

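The 9 protein-coding HLA-DR, HLA-DQ and HLA-DP genes of human chromosome 6 were examined in H3K4me3 ChIP-seq peak lists. They were set by gene name (HLA-DRA, HLA-DRB1, HLA-DRB5, HLA-DQA1, HLA-DQB1, HLA-DQA2, HLA-DQB2, HLA-DPA1 and HLA-DPB1) among 20033 protein-coding genes of the annotation. The rule uses no threshold on a measured value, but it was set with earlier results of these data known. The cells were clones of U2OS, a human osteosarcoma line. Each library came from its own clone, 3 wild type (WT) and 3 knockout (KO) for ZBTB48, a zinc finger protein that binds telomeric DNA and promoters, and both genotypes received 250 U/ml interferon gamma (IFNγ) for 24 h. H3K4me3, trimethylated lysine 4 of histone H3, marks active promoters. Untreated cells were not analysed here, so every value below describes IFNγ-treated cells, and the lists hold no measure of the ZBTB48 deletion itself.

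MHC class II molecules are pairs of an alpha and a beta chain that show peptides from taken-up proteins to CD4+ T cells. HLA-DRA, HLA-DQA1 and HLA-DPA1 encode alpha chains, and HLA-DRB1, HLA-DRB5, HLA-DQB1 and HLA-DPB1 encode beta chains. HLA-DQA2 and HLA-DQB2 encode a second, little expressed DQ pair. B cells, dendritic cells and macrophages express these genes constitutively, whereas most other cells do so only after IFNγ, which induces CIITA, the class II transactivator. CIITA binds no DNA itself and is recruited by factors on the X and Y boxes upstream of each gene: the RFX complex and CREB1 on the X box, and NF-Y, which reads the letters ATTGG, on the Y box. The study asked whether loss of ZBTB48 alters this programme, and the comparison here is of the mark at the class II genes themselves. The authors had examined this mark too, and described it as robust at most HLA cluster genes in WT and not in KO clones. They also tested differential binding on the reads, which the peak lists used here do not hold.

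The bases just upstream of 6 of these genes are shown because the factors above are known to act there. A WT peak described below lies within 600 bp of each 5′ end but that of HLA-DRB5, which is shown for its likeness to HLA-DRB1. The sequences are from RefSeq on GRCh38.p14, which held 8 of the 9 genes by symbol, and each gives the 180 bases before a 5′ end on the strand of the gene. Capitals mark the letters AACNNNTG, used here as the core of the X box, and ATTGG or its reverse complement CCAAT, the letters of the Y box. AACNNNTG is marked only as read on the printed strand, so its reverse complement, as in HLA-DQB1, stays in lower case.
HLA-DRB1 (chr6:32589849-32590028, minus strand): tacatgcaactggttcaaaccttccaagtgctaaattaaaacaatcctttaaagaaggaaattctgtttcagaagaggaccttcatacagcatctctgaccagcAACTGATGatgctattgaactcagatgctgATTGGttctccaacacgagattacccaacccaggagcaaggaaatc
HLA-DRB5 (chr6:32530288-32530467, minus strand): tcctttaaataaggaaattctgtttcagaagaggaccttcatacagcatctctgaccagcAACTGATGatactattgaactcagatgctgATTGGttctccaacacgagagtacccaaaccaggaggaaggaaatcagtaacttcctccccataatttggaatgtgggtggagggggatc
HLA-DQA1 (chr6:32637226-32637405, plus strand): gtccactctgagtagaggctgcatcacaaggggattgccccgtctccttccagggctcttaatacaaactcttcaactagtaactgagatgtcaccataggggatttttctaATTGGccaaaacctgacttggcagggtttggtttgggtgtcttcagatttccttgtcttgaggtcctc
HLA-DQB1 (chr6:32666658-32666837, minus strand): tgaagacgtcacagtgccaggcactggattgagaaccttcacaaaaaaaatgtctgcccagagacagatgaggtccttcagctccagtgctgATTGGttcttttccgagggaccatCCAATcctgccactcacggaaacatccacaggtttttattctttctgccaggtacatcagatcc
HLA-DPA1, at its inner 5′ end (chr6:33073650-33073829, minus strand): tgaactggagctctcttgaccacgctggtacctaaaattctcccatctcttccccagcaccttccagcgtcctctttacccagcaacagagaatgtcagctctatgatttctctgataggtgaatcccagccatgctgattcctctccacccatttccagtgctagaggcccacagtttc
HLA-DPB1 (chr6:33075810-33075989, plus strand): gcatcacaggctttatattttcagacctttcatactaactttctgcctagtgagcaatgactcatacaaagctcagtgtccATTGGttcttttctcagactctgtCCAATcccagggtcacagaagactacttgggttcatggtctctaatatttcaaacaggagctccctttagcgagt

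Over 250 bases upstream, ATTGG stood on the strand of the gene in 7 of the 8 genes with a sequence, and in 18.5% of 35116 RefSeq promoter windows of the same length. It began 46 bases before the 5′ end in HLA-DRB1, 90 in HLA-DRB5, 68 in HLA-DQA1 and HLA-DQA2, 88 in HLA-DQB1 and HLA-DQB2, and 99 in HLA-DPB1. HLA-DPA1 had these letters at neither of its RefSeq 5′ ends. AACNNNTG followed by ATTGG after 15 to 30 bases, searched on both strands, was found in 4 of the 8 genes and in 0.473% of all windows. In HLA-DRB1 and HLA-DRB5 the pair ran with the gene, with 22 bases between the 2 motifs, while in HLA-DQB1 and HLA-DQB2 it ran against the gene. A letter match does not show that a factor binds there, and its lack says only that these letters were not in the window.

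HLA-DRB1 and HLA-DRB5 shared 189 of 206 bases (91.7%) in their upstream sequences once they were shifted by 44 bases. The DQ pairs were less alike, with 162 of 250 identical bases for HLA-DQA1 and HLA-DQA2 and 151 of 250 for HLA-DQB1 and HLA-DQB2. Most class II promoters were also poor in CpG, between 1 and 5 in 250 bases at 8 of the 9 RefSeq 5′ ends, against a median of 11 over all windows. The outer 5′ end of HLA-DPA1 stood apart with 24 CpG and 70.4% GC. However, its window (chr6:33080749-33080998) overlaps exon 2 of HLA-DPB1 (chr6:33080672-33080935). These values therefore describe in part an exon of another gene.

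The lists were of unlike kinds. WT replicates 1 and 2 had wide peaks of high fold enrichment (median width 2297 and 2353 bp, median enrichment 13.4 and 14), whereas WT replicate 3 (1487 bp, 4.19) was like the KO lists (1275 to 1388 bp, 4.32 to 4.65). The lists held 21712 to 26370 peaks, and they do not give the reads in each peak. Over the 14422 promoters covered in any library, the median WT minus KO difference in covered length was 965 bp, so a longer WT peak was common at any promoter. WT replicate 3 against the 3 KO libraries is therefore given beside the comparison of 3 with 3. Among lineage markers, RUNX2, PRRX1 and COL1A1 were called within 3 kb of their 5′ ends in all 6 libraries, TWIST1 and COL1A2 in none, and the B cell and blood cell genes MS4A1, CD79A, CD79B, PTPRC and SPI1 had none there in any. Over the whole gene, TWIST1 (566 to 1078 bp) and SPI1 (1006 to 1172 bp) had peaks in all 6 libraries. PTPRC had 559, 625 and 349 bp in WT replicates 1, 2 and 3 and 0 bp in each KO library. COL1A2, MS4A1, CD79A and CD79B had no peak over the whole gene either.

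Peaks at the class II genes were found in more WT than KO libraries. Within 3 kb of the annotated 5′ end of the main transcript (MANE Select, or canonical for HLA-DPA1), 6, 4 and 6 of the 9 genes had a peak in WT replicates 1, 2 and 3, and 3, 3 and 1 in KO replicates 1, 2 and 3. Over all protein-coding promoters the share with a peak was nearly level, 69.4%, 69.2% and 69.6% in WT replicates 1, 2 and 3 and 69.9%, 68.4% and 68.6% in KO replicates 1, 2 and 3. HLA-DRB1 was the gene with a peak in every WT and no KO library, HLA-DQB1 the one with a peak in all 6, and HLA-DRB5 and HLA-DQA2 had none in any. Over all promoters, class II genes included, a peak in every WT and no KO library was rare. It was found at 23 of the 13572 promoters with a peak in all 3 WT libraries (0.169%), HLA-DRB1 among them. Of the class II genes, 4 had a peak in all 3 WT libraries (HLA-DRA, HLA-DRB1, HLA-DQB1, HLA-DPB1). In such bulk lists, less of the mark in every cell and fewer cells with the mark cannot be told apart, and a missing peak means that none was called at that library's depth.

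**Figure D1:**
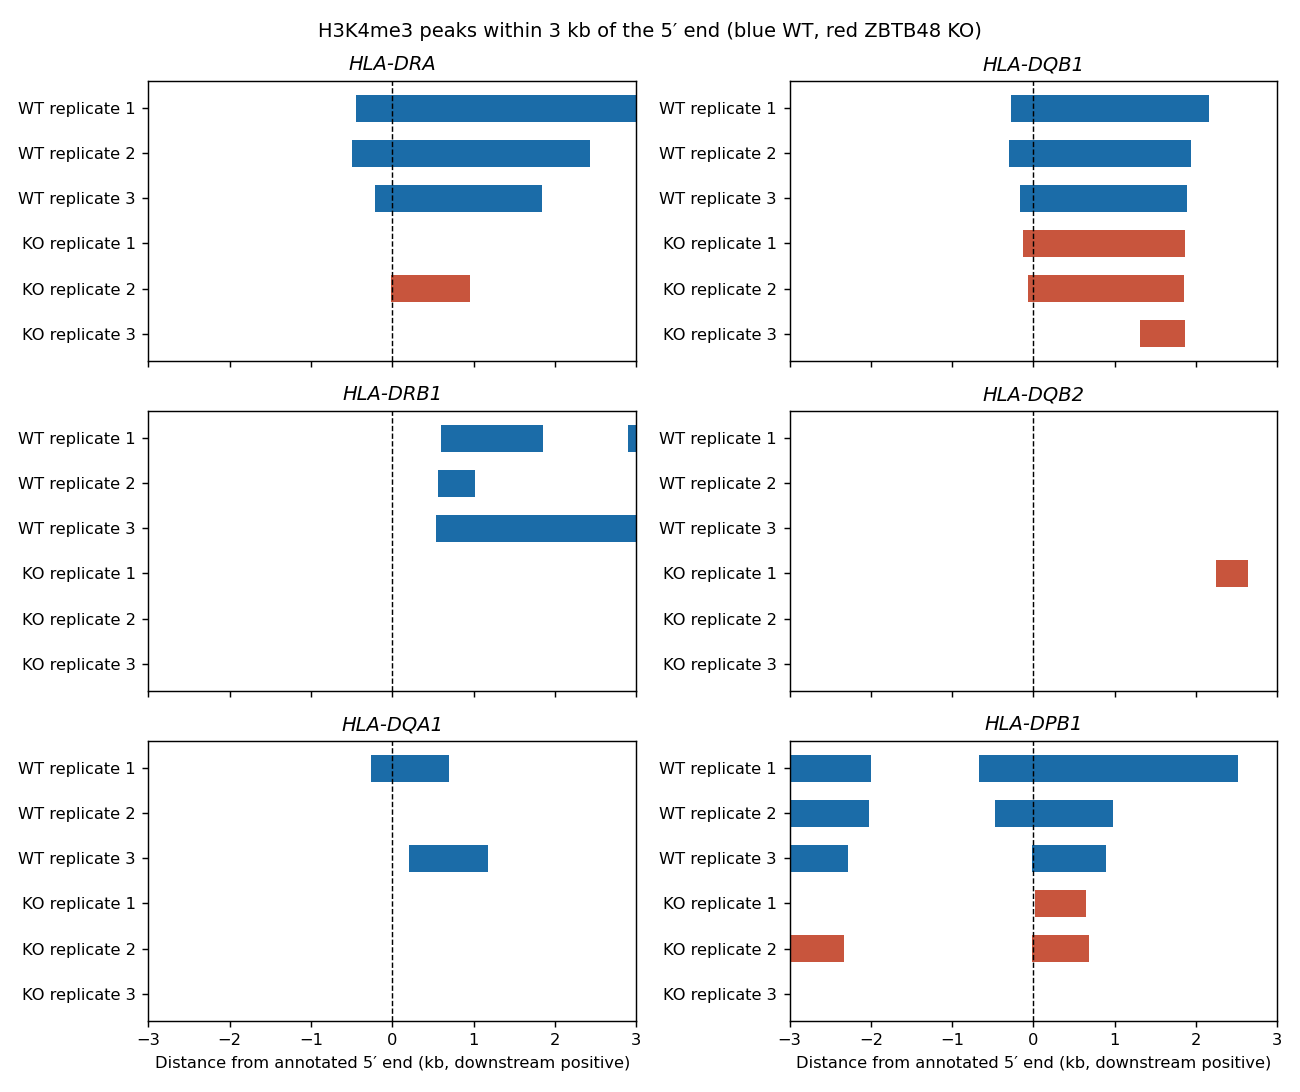
Peaks within 3 kb of the 5′ end of 6 class II genes, drawn as bars by library (3 WT in blue, 3 ZBTB48 KO in red) against distance from the 5′ end in kb, with downstream positive. HLA-DRB1 has bars in the 3 WT libraries alone, the nearest starting 543 to 600 bp downstream and a further one in WT replicate 1 at 2896 bp, and HLA-DQB1 has a bar in all 6 libraries, the shortest of them in KO replicate 3.

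HLA-DRA (ENSG00000204287) encodes the alpha chain that all DR molecules share, and starts at position 32439887 on the plus strand. Its covered length, the bp under peaks within 3 kb of the 5′ end, was 3442, 2930 and 2057 bp in WT replicates 1, 2 and 3, and 0, 979 and 0 bp in KO replicates 1, 2 and 3. The WT values were all above the KO values, with means of 2809.7 ± 700.3 and 326.3 ± 565.2 bp (SD, n = 3 each). The difference of 2483.3 bp had a two-sided exact permutation p of 0.1, the smallest that 3 libraries against 3 can give (adjusted p = 0.196 over 14422 promoters, the smallest among them). No class II gene could give a smaller p in this design.

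The 3 WT peaks crossed the HLA-DRA 5′ end and reached 1838 to 4226 bp downstream, into exon 1 and intron 1 in each and as far as exon 4 in WT replicate 1. The KO replicate 2 peak lay over the same 5′ end, from 21 bp upstream to 957 bp downstream, with a fold enrichment of 3.81, at percentile 29.1 of its own list. WT replicate 3, a list of the same kind, had a peak 2057 bp wide there at percentile 36.9. In KO replicates 1 and 3 the nearest peak was 19480 and 19481 bp away, at the pseudogene HLA-DRB9. Of the HLA-DRA window, 1078 bp lay under a peak in all WT and no KO libraries.

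HLA-DRB1 (ENSG00000196126) encodes the most widely expressed DR beta chain and starts at position 32589848 on the minus strand. Its covered length was 1366, 456 and 2458 bp in WT replicates 1, 2 and 3, and 0 bp in each KO library. The WT mean was 1426.7 ± 1002.4 bp (SD, n = 3; exact permutation p = 0.1, adjusted p = 0.196), and without WT replicate 3 the difference was 911 bp. In the KO libraries the nearest peak stood 19925 to 20117 bp from the 5′ end.

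None of the HLA-DRB1 peaks covered the 5′ end of the main transcript. The nearest began 543 to 600 bp downstream of it, within intron 1, and WT replicate 1 had another, 414 bp wide, that began 2896 bp downstream with a −log10 q of 1.09. In all, 424 bp of the window were under a peak in the 3 WT libraries and in no KO library. Another annotated 5′ end of the gene, at position 32589143, lay under the peak of every WT library. These peaks were weak in their lists, with −log10 q of 8.29 for the nearer one in WT replicate 1, 1.93 in WT replicate 2 and 4.67 in WT replicate 3. The peak in WT replicate 2 was 456 bp wide and at percentile 7.09 of fold enrichment, and at a −log10 q of at least 3 it was lost, which left HLA-DRB1 called in 2 of 3 WT libraries.

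HLA-DRB5 (ENSG00000198502), a further DR beta gene carried by only some DR haplotypes, starts at position 32530287. It had no peak within 3 kb or in the gene body in any of the 6 libraries, whereas HLA-DRB1, its closest relative here by upstream sequence, had one in the 3 WT libraries. The study measured HLA-DRB5 transcript by qPCR in IFNγ-treated U2OS clones and reported more of it in WT than in KO clones. Peak lists measure no RNA, and the genome of U2OS was not examined here. Whether these clones carry the gene was not tested.

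HLA-DQA1 (ENSG00000196735) encodes the DQ alpha chain and starts at position 32637406. It had 969, 0 and 981 bp in WT replicates 1, 2 and 3 and 0 bp in each KO library, so the groups touched at 0 (WT mean 650 ± 562.9 bp, SD, n = 3; exact permutation p = 0.4, adjusted p = 0.431). The peak of WT replicate 1 lay over the 5′ end, and that of WT replicate 3 began 200 bp downstream. Both were near the limit of calling, with −log10 q of 3.05 and 1.98, and neither reached a fold enrichment of 4.

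HLA-DQB1 (ENSG00000179344) encodes the DQ beta chain and starts at position 32666657 on the minus strand. It was the class II gene with a peak in all 6 libraries. Covered length was 2440, 2243 and 2048 bp in WT replicates 1, 2 and 3, and 1995, 1926 and 551 bp in KO replicates 1, 2 and 3. The WT values stood above the KO values, but WT replicate 3 exceeded KO replicate 1 by 53 bp. The difference of means was 753 bp (2243.7 ± 196.0 against 1490.7 ± 814.5 bp, SD, n = 3 each; exact permutation p = 0.1, adjusted p = 0.196), and it was 283.2 bp without KO replicate 3.

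In WT replicates 1 to 3 and KO replicates 1 and 2 the HLA-DQB1 peak ran from upstream of the 5′ end to about the far side of exon 2. In KO replicate 3 it was a single short peak, chr6:32664795-32665345, that began 1312 bp downstream of the 5′ end and held the whole of exon 2 (chr6:32664798-32665067). This short peak had a fold enrichment of 8.94, at percentile 99.1 of its list. The 541 bp of the window under a peak in all 6 libraries fell in this stretch, so the position common to all clones was around exon 2 and not the promoter. Over the 5′ end itself a peak was called in 3 WT and 2 KO libraries.

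HLA-DQA2 (ENSG00000237541), the alpha gene of the little expressed DQ pair, had no peak within 3 kb or in its body in any library. HLA-DQB2 (ENSG00000232629), its beta partner, had 1 peak, 391 bp wide, in KO replicate 1, which lay 2245 bp downstream of the 5′ end with a fold enrichment of 3.07 and a −log10 q of 2.51. It was the only peak at a class II gene found in a KO and in no WT library, and the difference of −130.3 bp (exact permutation p = 1) was that of 1 library.

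HLA-DPB1 (ENSG00000223865) encodes the DP beta chain and starts at position 33075990 on the plus strand. Covered length was 4187, 2424 and 1630 bp in WT replicates 1, 2 and 3, and 636, 1381 and 0 bp in KO replicates 1, 2 and 3. The groups did not overlap, with 249 bp between WT replicate 3 and KO replicate 2. The means were 2747 ± 1308.7 and 672.3 ± 691.2 bp (SD, n = 3 each), a difference of 2074.7 bp (exact permutation p = 0.1, adjusted p = 0.196) that was 1354.7 bp without WT replicate 1. The KO replicate 2 peak crossed the 5′ end and that of KO replicate 1 began 15 bp downstream of it, whereas in KO replicate 3 the nearest peak was 41171 bp away.

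HLA-DPA1 (ENSG00000231389) encodes the DP alpha chain. Its canonical transcript starts at position 33080710 on the minus strand, within the gene that HLA-DPB1 occupies on the plus strand, and there covered length was 799, 0 and 521 bp in WT replicates 1, 2 and 3 and 0 bp in each KO library (WT mean 440 ± 405.6 bp, SD, n = 3; exact permutation p = 0.4, adjusted p = 0.431). The 799 bp of WT replicate 1 belonged to the peak over the HLA-DPB1 5′ end, 2202 bp away and so within 3 kb, while the same peak of WT replicate 2, at 3743 bp, fell outside. A peak over the canonical 5′ end itself was called in WT replicate 3 alone, with a fold enrichment of 1.88 and a −log10 q of 1.61. This peak also overlapped exon 2 of HLA-DPB1.

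The annotation gives HLA-DPA1 a second set of 5′ ends 7061 to 7095 bp further downstream, 2341 bp from the HLA-DPB1 5′ end and head to head with it. This inner 5′ end was examined with the pattern at the canonical one already seen. Around position 33073649, the outermost of these, covered length was 4332, 3442 and 1999 bp in WT replicates 1, 2 and 3 and 636, 1464 and 0 bp in KO replicates 1, 2 and 3. The WT values were again all higher, with means of 3257.7 ± 1177.4 and 700 ± 734.1 bp (SD, n = 3 each; exact permutation p = 0.1, not adjusted). A peak lay over this 5′ end in 3 WT libraries and in KO replicate 2, with −log10 q of 26.1, 19.1 and 14.9 in WT replicates 1 to 3 and 2.21 in KO replicate 2. The value for HLA-DPA1 thus depended on the 5′ end chosen, and its window at the inner end shares both peaks with that of HLA-DPB1.

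**Figure D2:**
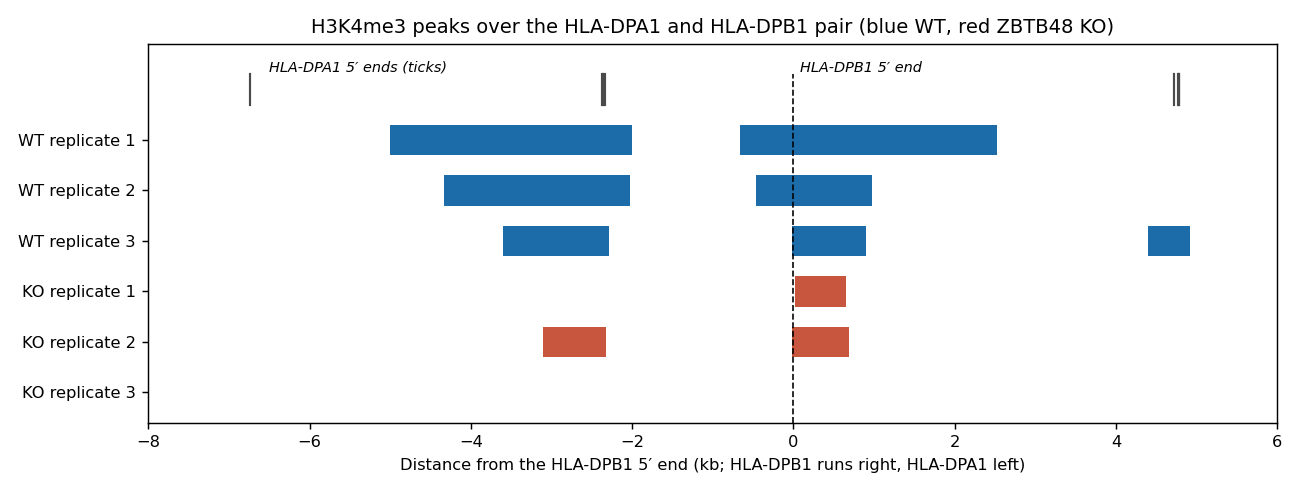
Peaks over the HLA-DPA1 and HLA-DPB1 pair by library, against distance from the HLA-DPB1 5′ end in kb (dashed line), with ticks at the annotated HLA-DPA1 5′ ends. The WT libraries have 1 bar over the HLA-DPB1 5′ end and 1 over the inner HLA-DPA1 5′ ends, and WT replicate 3 has a further bar over the outer HLA-DPA1 5′ ends. KO replicate 2 has a shorter bar at the HLA-DPB1 and at the inner HLA-DPA1 5′ ends, KO replicate 1 has the HLA-DPB1 bar alone and KO replicate 3 has none.

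By mean covered length in WT, HLA-DRA (2809.7 bp), HLA-DPB1 (2747 bp) and HLA-DQB1 (2243.7 bp) came first, and their ranges overlapped. HLA-DRB1 (1426.7 bp) overlapped each of them in range. HLA-DQA1 (650 bp) and HLA-DPA1 (440 bp) followed, overlapping each other and HLA-DRB1. In KO the order was HLA-DQB1 (1490.7 bp), HLA-DPB1 (672.3 bp), HLA-DRA (326.3 bp) and HLA-DQB2 (130.3 bp), and the ranges of the last 3 reached 0. The KO range of HLA-DQB1 overlapped those of HLA-DPB1 and HLA-DRA. The KO clones differed among themselves. KO replicate 1 had peaks at HLA-DQB1, HLA-DQB2 and HLA-DPB1, KO replicate 2 at HLA-DRA, HLA-DQB1 and the DP pair, and KO replicate 3 at HLA-DQB1.

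**Figure D3:**
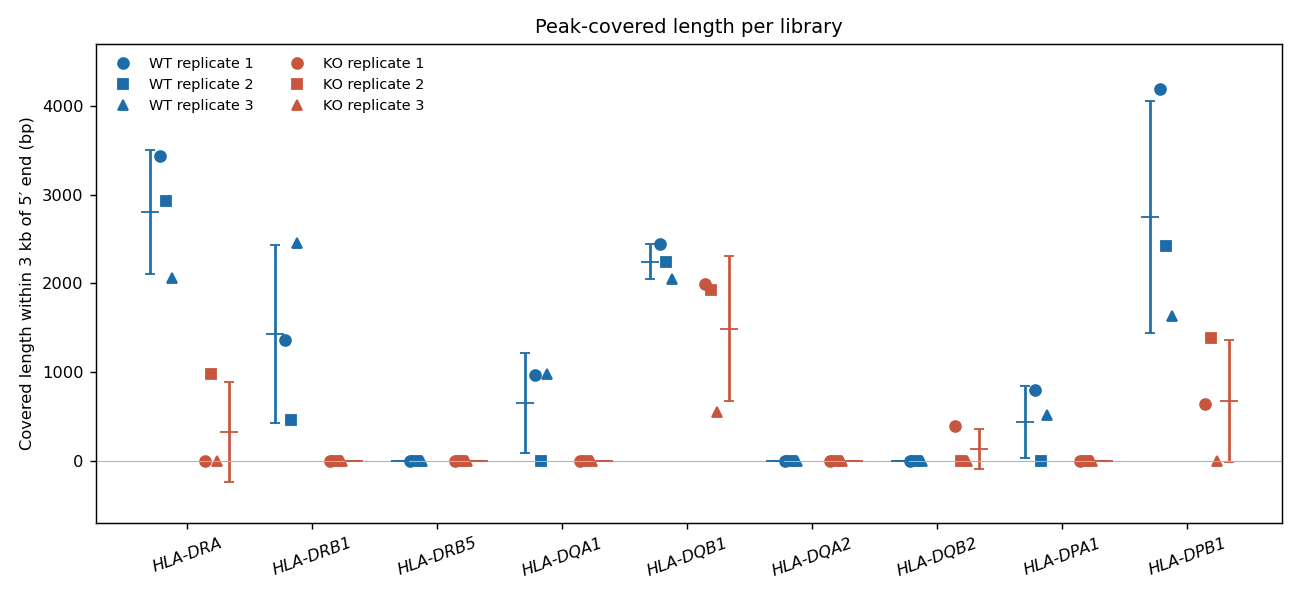
Covered length within 3 kb of the 5′ end, in bp, for the 9 genes in each library, with points for libraries and horizontal dashes with bars for the group mean and SD (n = 3 each). HLA-DRA, HLA-DRB1, HLA-DQB1 and HLA-DPB1 have all WT points above all KO points, and HLA-DRB5 and HLA-DQA2 lie at 0 throughout.

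The WT libraries lay above every KO library at 4 of the 7 class II genes with any peak in the window (HLA-DRA, HLA-DRB1, HLA-DQB1 and HLA-DPB1). The same held for 50.8% of all covered promoters, so this count was close to the background. In WT replicate 3 alone, 6 of the 7 genes (the same 4, HLA-DQA1 and HLA-DPA1) had more covered length than in any KO library, against 54.4% of promoters. A peak in WT replicate 3 and in no KO library was found at 3 of the 6 class II genes that had one in WT replicate 3 (HLA-DRB1, HLA-DQA1 and HLA-DPA1), against 0.983% of promoters. The last 2 of these peaks were among the weakest named above. The median WT minus KO difference over the 7 covered genes was 753 bp, below the 965 bp over all covered promoters. HLA-DQB1, HLA-DQA1, HLA-DPA1 and HLA-DQB2 lay below 965 bp, and HLA-DRA, HLA-DRB1 and HLA-DPB1 above it.

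Covered length was also ranked within each library, which compares no lengths between lists of unlike kinds. A promoter with no peak falls at percentile 15 to 15.8 on this scale, which counts ties at their middle rank. HLA-DRA stood at percentiles 68.9, 57.8 and 69.8 in WT replicates 1, 2 and 3, and at 15, 36.2 and 15.7 in KO replicates 1, 2 and 3. HLA-DRB1 stood at 35.3, 31.7 and 84 in WT and without a peak in KO. These were the 2 of 7 genes whose WT ranks all lay above their KO ranks, against 6.29% of promoters. HLA-DQB1 ranked at 47, 42.3 and 69.5 in WT and at 69, 73.4 and 33 in KO, so that the WT mean was 5.6 points below the KO mean and the groups overlapped. HLA-DPB1 overlapped too, at 84.8, 45.6 and 49.2 in WT and 31.6, 48.3 and 15.7 in KO. The ranking was added after the lengths had been seen.

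**Figure D4:**
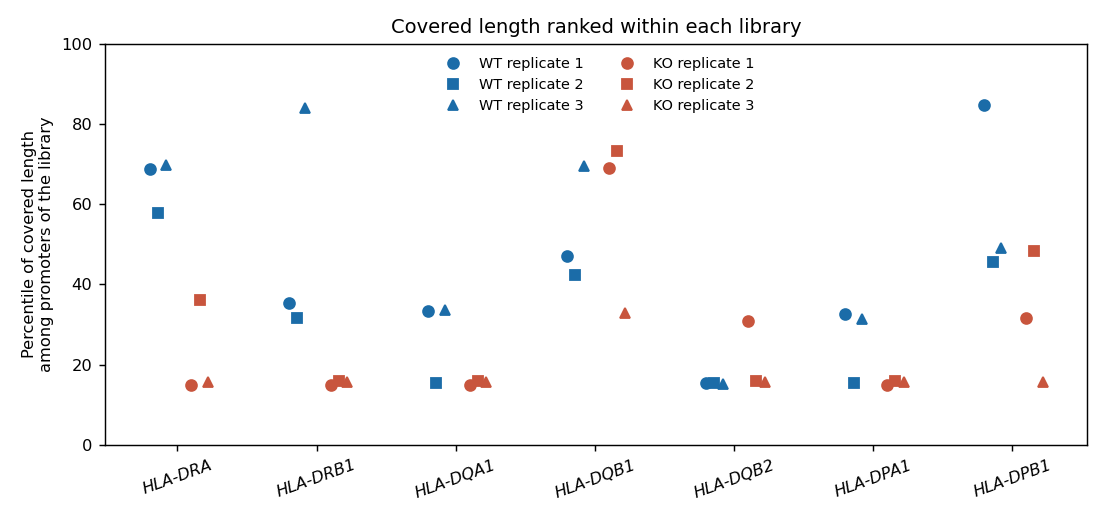
Percentile of covered length among all protein-coding promoters of the same library, for the 7 class II genes with a peak in any library, with 1 point per library. HLA-DRA and HLA-DRB1 have all WT points above all KO points, whereas the HLA-DQB1 and HLA-DPB1 points of the genotypes overlap.

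Over whole gene bodies, from the 5′ to the 3′ end, the WT libraries lay above every KO library at 5 of the 7 covered class II genes, against 45.3% of covered gene bodies. HLA-DPA1 joined the 4 genes above, with 6191, 3760 and 2621 bp in WT replicates 1, 2 and 3 and 636, 1494 and 0 bp in KO replicates 1, 2 and 3 (difference 3480.7 bp; exact permutation p = 0.1, adjusted p = 0.22). Its body overlaps that of HLA-DPB1 by 4786 bp and holds the HLA-DPB1 5′ end, so these bp are in part counted for both genes. HLA-DRA had 4236, 2446 and 1848 bp in WT and 0, 967 and 0 bp in KO, close to its values around the 5′ end.

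From 3 kb before HLA-DRA to 3 kb past HLA-DPB1 (chr6:32436878-33092696), the 6 lists merged into 23 regions. Of these, 8 touched a class II gene named above, 11 another annotated gene, and 4 no gene. At the 9 genes the lists covered 15943, 9389 and 10619 bp in WT replicates 1, 2 and 3, and 3022, 4399 and 551 bp in KO replicates 1, 2 and 3. WT replicate 3 thus had more than the highest KO library. At other genes of the span the same libraries covered 42204, 40613 and 22758 bp in WT and 23115, 16526 and 16200 bp in KO, and here WT replicate 3 lay below KO replicate 1. A region with a peak in all 6 libraries was seen in 1 of 8 at the class II genes (HLA-DQB1), 6 of 11 at other genes and 2 of 4 between genes.

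**Figure D5:**
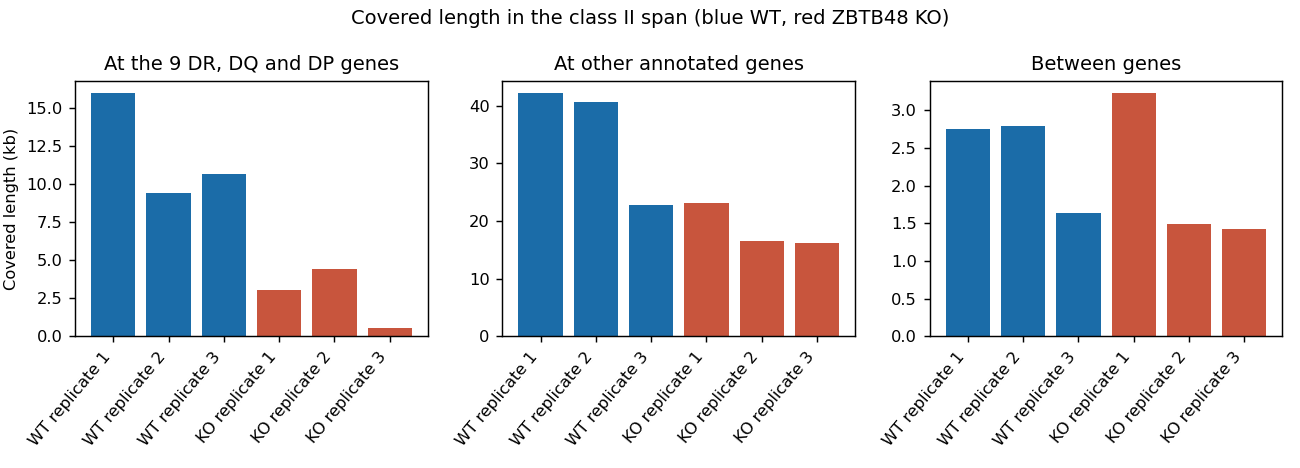
Length under peaks, in kb, from HLA-DRA to HLA-DPB1 in each library, at the 9 class II genes, at other annotated genes and between genes, with bars from 0 and a scale of its own in each panel. At the class II genes each WT bar is higher than each KO bar, while at other genes WT replicate 3 is slightly lower than KO replicate 1, and between genes KO replicate 1 is highest.

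The intergenic regions did not separate the genotypes in any of 4 cases. The first, chr6:32609693-32610529, lies between HLA-DRB1 and HLA-DQA1, 19845 bp past the former, and had 765, 672 and 509 bp in WT replicates 1, 2 and 3 and 714, 584 and 352 bp in KO replicates 1, 2 and 3 (648.7 ± 129.6 against 550 ± 183.4 bp, SD, n = 3 each; exact permutation p = 0.6). The region between HLA-DQB2 and HLA-DOB, chr6:32796670-32797913, had 1028, 1150 and 1130 bp in WT and 1060, 909 and 1077 bp in KO (1102.7 ± 65.4 against 1015.3 ± 92.5 bp; exact permutation p = 0.3). The first is also the peak nearest to the HLA-DRB1 5′ end in the KO libraries. Both regions had a peak in all 6 libraries. HLA-DRB1 and HLA-DQA1, on either side of the first region alone, had no peak in the KO libraries. Another, chr6:32703503-32704593 between HLA-DQB1 and HLA-DQA2, had 729, 967 and 0 bp in WT and 881, 0 and 0 bp in KO. The last, chr6:33018874-33019445 between HLA-DOA and HLA-DPA1, had 236 bp in WT replicate 1 and 572 bp in KO replicate 1 alone.

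Of the class II pseudogenes, HLA-DRB9 had a peak in all 6 libraries, at chr6:32458903-32460933. HLA-DPB2 had 1595 bp in KO replicate 1 and 634 bp in KO replicate 3 and none in WT. HLA-DRB6, HLA-DQB3, HLA-DPA2 and HLA-DPA3 had none.

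The 13 other genes of the class II pathway (CIITA and the X and Y box factors, the invariant chain CD74 and the peptide-loading HLA-DM and HLA-DO chains) had a peak within 3 kb at 13, 13 and 12 genes in WT replicates 1, 2 and 3 and at 8, 11 and 8 in KO replicates 1, 2 and 3, where the share over all promoters lay between 68.4% and 69.9%. The factors on the X and Y boxes (RFX5, RFXANK, RFXAP, CREB1, NFYA, NFYB and NFYC) were called in all 6 libraries, as was HLA-DMB, a chain of the DM molecule that loads peptides. HLA-DMA, the other DM chain, and HLA-DOA, a chain of the DM inhibitor DO, were called within 3 kb in every WT and no KO library. Their covered lengths within the span's regions were 1782, 1305 and 1825 bp at HLA-DMA and 859, 501 and 1114 bp at HLA-DOA in WT replicates 1, 2 and 3. Over the whole gene HLA-DMA had 4090, 3626 and 3365 bp in WT and 1626, 1835 and 1343 bp in KO. Its KO values came from peaks that also overlap BRD2. Covered length within 3 kb was higher in all WT than in all KO libraries at 11 of the 13, against the 50.8% given above. Neighbouring genes of antigen processing for class I (TAP1, TAP2, PSMB8 and PSMB9) and BRD2 had a peak in all 6 libraries.

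By ranks within the 6 libraries, the promoters most like the mean of the 7 covered class II genes were ZNF727 (distance 16.6 percentile points, Euclidean over 6 libraries), TMEM102 (18), VWA5A (18.2), HLA-DMB (18.8) and PLAC9 (19.9). Of these, HLA-DMB is the one in the class II region, and its covered length was 1547, 1576 and 1613 bp in WT replicates 1, 2 and 3 and 953, 715 and 519 bp in KO replicates 1, 2 and 3. Covered length was also higher in every WT than in every KO library at TMEM102, VWA5A and PLAC9, but not at ZNF727. All were picked for such ranks, so their pattern is no independent result.

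Reads that matched several places were removed before peaks were called, which bears on genes as alike as these. Every stretch of 150 bases in the 6 kb around each 5′ end occurred once in the primary chromosomes of GRCh38, at all 9 genes. With 50 bases the unique share was between 83.3% (HLA-DRB5) and 100% (HLA-DQB1). If alternative haplotype contigs are counted as further places, the unique share of 150-base stretches was 0% around HLA-DRA, HLA-DQA2, HLA-DQB2, HLA-DPA1 and HLA-DPB1, 84.3% around HLA-DQA1, 92.3% around HLA-DQB1 and 100% around HLA-DRB1 and HLA-DRB5. Peaks were called at HLA-DRA, HLA-DPA1 and HLA-DPB1 all the same, and no list held a peak on such a contig. Whether the authors' alignment index held these contigs is not given in the sources used here.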

How the data were processed

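The labels gave genotype and replicate for 3 WT and 3 ZBTB48 KO H3K4me3 ChIP-seq libraries, each from its own clone. No value comes from the 2 WT input libraries, which were not used here. According to the methods, adapters were cut with Trimmomatic, reads were mapped to GRCh38 with Bowtie2 2.3.5.1, reads without a single place or present as duplicates were discarded, and MACS2 2.1.1.2 gave a broad peak list for each library separately (versions from the submitters' processing notes). Use of an input for each list is not given in the sources used here. The deposited fold enrichment is a ratio over local background, the deposited −log10 p and −log10 q values are peak averages as well, and the deposited score is a display value left unused. The peak lists the authors deposited give no reads per peak or library, and the methods give the sequencing depth only as a range over the ChIP-seq samples, so counting error was not computed. Fold enrichment and −log10 q served to describe peaks inside 1 list, and their values were not tested between lists. As fixed thresholds they filtered all lists in the alternatives, so they did enter the WT minus KO differences given there.

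Peaks of the 22 autosomes, X and Y were set against GENCODE release 44 in 1-based positions. Windows reached 3 kb to either side of the MANE Select or canonical 5′ end, a call needed 1 bp of overlap, and covered length was the bp under peaks. WT and KO values were compared by two-sided exact permutation of the library labels (20 assignments, lowest p 0.1), with Benjamini-Hochberg adjustment over all covered promoters or gene bodies. Named were the 9 genes, lists of pathway genes, pseudogenes, neighbours and markers, and the 5 promoters nearest in rank. The value of 1 marker gene is not reported here. Members and lists were chosen with earlier results of these data known. Alternatives were −log10 q of at least 3, fold enrichment of at least 4, equal peak numbers, a 1 kb window, any annotated 5′ end, joined peaks, an overlap of 500 bp, unique 150-base positions, a replicate block, each library left out, WT replicate 3 alone, protein-coding genes only and Y box letters alone. The percentile within a library was added after seeing the data. The counting was tested on simulated lists. Python 3.11.15, numpy 2.4.6, numba 0.67.0 and matplotlib 3.10.9 were used.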

Additional observations from a re-analysis of the deposited data

How the results depend on the processing

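The design cannot give an exact p under 0.1, so only directions and sizes are compared. Around the 5′ ends of HLA-DRA, HLA-DRB1, HLA-DPA1 and HLA-DPB1 the WT mean stayed above the KO mean in every alternative run, but sizes moved. At a fold enrichment of at least 4 the difference was 2124 bp at HLA-DRA and 1967 bp at HLA-DPB1. These values rested on WT replicates 1 and 2, because WT replicate 3 had no peak left in either window. Neither gene then had all WT libraries above all KO libraries, and KO replicate 2 kept a peak at HLA-DPB1 with an enrichment of 4.14. HLA-DRB1 fell from 1426.7 to 420.3 bp at a fold enrichment of at least 4, and HLA-DPA1 went from 440 bp to 2997.7 bp with any annotated 5′ end, 173.7 bp with the 1 kb window, 266.3 bp at either peak threshold and 260.5 bp without WT replicate 1. The 1 kb window, which holds fewer bp by construction, gave 1058.7 bp at HLA-DRA, 430.7 bp at HLA-DRB1 and 894 bp at HLA-DPB1. WT replicate 3 alone gave 2458 bp at HLA-DRB1 and 957.7 bp at HLA-DPB1. The difference at HLA-DQA1 was 0 bp at a fold enrichment of at least 4, within 3 kb and in the body. At HLA-DQB2 it was 0 bp at a −log10 q of at least 3, at a fold enrichment of at least 4 and with equal peak numbers, within 3 kb and in the body, and 0 bp with the 1 kb window; with each library left out in turn it ranged from −195.5 to 0 bp for both. At HLA-DQB1 the sign reversed, to −5.6 percentile points, when covered length was ranked within the library. The mean number of called genes differed by 3 between WT and KO and by 1.67 at a fold enrichment of at least 4. At that threshold 5, 3 and 1 genes were called in WT replicates 1, 2 and 3, and 1, 2 and 1 in KO replicates 1, 2 and 3. WT replicate 3 thus had no more than the KO libraries. A fixed threshold bears unequally on these lists. Median enrichment was 13.4 and 14 in WT replicates 1 and 2, and 4.19 to 4.65 in the other lists. The count of genes called in every WT and no KO library was 1, and 0 at a −log10 q of at least 3, at a fold enrichment of at least 4, with equal peak numbers and with a 500 bp overlap, because the short HLA-DRB1 peak of WT replicate 2 was lost, and at the fold enrichment also that of WT replicate 3. It was 3 in WT replicate 3 against KO, and 1 to 3 with each library left out (3 without WT replicate 2, 2 without KO replicate 2). With protein-coding genes only, intergenic regions numbered 7 in place of 4, and 4 in place of 2 had a peak in all 6 libraries. With Y box letters alone, on either strand, 7 of the 8 genes matched in place of 4.

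With the replicate number as a replicate block the differences are unchanged by construction (2483.3 bp at HLA-DRA) and the smallest possible p is 0.25, the value at HLA-DRA, HLA-DRB1, HLA-DQB1 and HLA-DPB1. Deviations of same-numbered libraries from their group means correlated at −0.00952, 0.0171 and 0.0932 over 14422 promoters, so the numbers were not taken to pair the clones. Depth limits every missing peak: weak peaks near the calling limit decide HLA-DQA1, HLA-DQB2, the canonical HLA-DPA1 5′ end and HLA-DRB1 in WT replicate 2.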
